A study of Sus scrofa with 80 samples.

Results

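The ovary of female piglets was set against 4 other tissues of the same animals: the hypothalamus, the adenohypophysis (the anterior lobe of the pituitary), the thyroid gland and the backfat. The ovary arrays were the 7 of 80 arrays in the series whose sample title names a gonad and a female, and they were compared with the 28 arrays of the other tissues that carry the same animal codes. The 45 arrays of males, testes included, were not used. The study profiled 5 endocrine tissues of 16 pigs from 4 breeds on the Affymetrix Porcine GeneChip, a 1-colour oligonucleotide array, 1 array per tissue and animal. The females were the Duroc DUF13 and DUF14, the Iberian IBF22 and IBF25, the Large White LWF05 and LWF06, and the Youli YLF21, the only female of a crossbred maternal line. Average ages at slaughter were 83 days for Duroc, 89 for Iberian, 87 for Large White and 80 for Youli. No group received a treatment: all animals shared housing and diet after weaning and were fasted before slaughter. With 1 or 2 females per breed, breed and animal differences among ovaries cannot be told apart.

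The functional unit of the ovary is the follicle, in which an oocyte is enclosed by granulosa cells and, outside a basement membrane, by theca cells. The oocyte builds its coat from zona pellucida proteins and secretes growth factors of the TGF-beta family, theca cells turn cholesterol into androgens under luteinizing hormone, and granulosa cells turn androgens into estradiol and make inhibin and follistatin, which restrain the release of follicle-stimulating hormone by the adenohypophysis. After ovulation the follicle wall becomes the corpus luteum, a gland that makes progesterone and, in the pig, relaxin.

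Values are log2 GCRMA levels, so 1 unit is a 2-fold difference, and genes without signal lie at a floor near 2, which differs a little from probeset to probeset. A difference measured from that floor depends on where the floor lies, and levels of different genes were not compared. The fit shared the spread of a probeset over all tissues. For genes at the floor in the other tissues, SE and adjusted p therefore understate the spread among the ovaries. Where 3 ovary levels of a gene stand in a row, they are the lowest, the median and the highest of the 7 arrays. Array medians were between 4.91 and 5.04 in the ovary and averaged 4.98, against averages of 4.85 for hypothalamus, 4.86 for both adenohypophysis and thyroid gland, and 4.73 for backfat, a shift of 0.15 over all probesets. The median difference over the 6765 genes was -0.03. In the thyroid gland, 6 of the 7 arrays with a female title carried a breed or sex field that conflicts with the title, and titles were used.

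The array labelled ovary of IBF25 stood apart from the other 6 ovaries. Of the 5 ovary markers chosen for this comparison, ZP3, ZP4, FST and HSD17B1 were at 2.22, 2.71, 2.22 and 2.88 in it, and GDF9 was at 5.32, within the range of the other tissues (4.16 to 6.67). In the other 6 ovaries the lowest levels were 8.37 for ZP3, 8.61 for ZP4, 9.60 for FST, 10.40 for HSD17B1 and 8.56 for GDF9. The gonadal transcription factors WT1 and GATA6 were at 9.42 and 8.67 in it, against at most 2.09 and 4.82 in the other tissues. No reproductive tract was profiled, so these levels do not tell ovary from tract, and the tissue of this array was not tested. Over the 200 probesets chosen in the 4 other tissues as markers of the animal, its deviations correlated with those of IBF25 at r = 0.69 and with those of any other female at 0.12 at most. That correlation bears on the animal and not on the tissue. The array was kept as labelled, and the counts of calls are given with and without it. Because it was singled out by its values, its differences from the other ovaries are descriptions without a test. Fits without IBF25 leave out the array in which oocyte and granulosa genes were low. For such genes, a smaller SE or adjusted p without IBF25 follows from that choice and adds no support. RNA of the other organs was at low levels in the ovaries: the mean level of 17 adenohypophysis genes was between 2.43 and 2.78 in ovaries, against 10.46 to 11.23 in the adenohypophysis itself, and that of 23 neuronal genes between 2.58 and 2.92, against 7.81 to 10.45 in the hypothalamus.

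The first question was which genes set the ovary apart from the mean of the other 4 tissues, and which from every one of them. In limma, with breed as covariate, 1999 of 6765 genes (29.5%) were higher and 1951 (28.8%) lower in ovary than in the mean of the 4 tissues. Ovary was higher than each tissue for 661 genes (9.77%), meaning 4 positive differences that each had an adjusted p under 0.05, and lower than each for 265 (3.92%). Without IBF25 these counts were 2007 higher (29.7%) and 2016 lower (29.8%) than the mean, and 708 above (10.5%) and 284 below (4.2%) each tissue, with 611 and 247 genes in common. A difference of at least 1 log2 unit from each tissue was reached by 293 genes above (4.33%) and 39 below (0.576%), and without IBF25 by 334 (4.94%) and 51 (0.754%). When arrays were centred on their median, which removes the shift of 0.15, the split turned: 485 genes were above and 892 below each tissue, and 1617 were higher and 3125 lower than the mean.

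Against single tissues, ovary was higher than the hypothalamus for 2491 genes (36.8%) and lower for 1776 (26.3%), and higher than the adenohypophysis for 1993 (29.5%) and lower for 1689 (25%). The thyroid gland gave the fewest higher genes, 1653 (24.4%), with 1816 lower (26.8%), and backfat the most lower ones, 2091 (30.9%), with 2048 higher (30.3%). Without IBF25 the higher and lower genes were 2472 (36.5%) and 1780 (26.3%) for the hypothalamus, 1969 (29.1%) and 1683 (24.9%) for the adenohypophysis, 1673 (24.7%) and 1839 (27.2%) for the thyroid gland, and 1973 (29.2%) and 2108 (31.2%) for backfat. All 7 ovaries lay above all 28 other arrays for 140 genes (2.07%), and the 6 ovaries without IBF25 for 321 (4.75%). All 7 lay below them for 53 (0.783%), and the 6 without IBF25 for 93 (1.37%).

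Genes of the oocyte were above each tissue for 9 of 14 measured members (64.3%, against 9.77% of all genes). The same 9 were called without IBF25 (against 10.5% of all genes), and none was below. The median difference of the 14 members from the mean of the 4 tissues was 4.10, and 4.78 without IBF25, against -0.03 over all genes. ZP3, a protein of the zona pellucida, was between 2.22 and 11.14 in the 7 ovaries with a median of 9.01, against 2.17 to 2.30 in the 28 arrays of the other tissues. The ovary of DUF14 was highest, the array of IBF25 fell inside the range of the other tissues, and the other 5 ovaries lay between 8.37 and 9.83. The difference was 6.14 ± 0.54 (SE, adjusted p = 1.0e-10), and 7.17 ± 0.20 without IBF25 (adjusted p = 3.7e-19). ZP4, another zona protein, had a lowest, median and highest ovary level of 2.71, 9.62 and 11.34, against at most 2.82 elsewhere, and ZP2 of 1.95, 5.93 and 8.79, against at most 2.04. In both genes the 6 ovaries other than IBF25 were above all other arrays.

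BMP15 and GDF9, growth factors that the oocyte secretes, were also above each tissue. BMP15 was at 1.97, 6.54 and 9.60 (lowest, median and highest ovary), against 1.90 to 2.01 elsewhere, and GDF9 at 5.32, 9.68 and 11.28, against 4.16 to 6.67. DUF14 was the highest ovary for both and IBF25 the lowest, and without IBF25 no ovary overlapped the other tissues. GDF9 was called above each tissue (4.05 ± 0.40, adjusted p = 1.3e-09) although its levels in the other tissues were well over the floor. DPPA5, a marker of germ and early embryonic cells, reached 12.65 in DUF14 and had a median of 11.54, against at most 2.39 elsewhere. PADI6 and KPNA7, which in the mouse act in the egg and early embryo, had medians of 9.06 and 9.50, and WEE2, a kinase that in mammals holds the oocyte in meiotic arrest, of 8.50. In IBF25 they were at 2.20, 3.24 and 2.08, and in the other ovaries at 8.15, 8.86 and 7.30 or more, against at most 2.27, 3.08 and 2.13 elsewhere. H1FOO, the linker histone of the oocyte, had a smaller range, 2.84 to 6.95 with a median of 5.62, against 2.52 to 3.50 elsewhere. The germ cell genes DDX4 and POU5F1 did not pass the test (differences -0.01 ± 0.02 and 0.10 ± 0.05, adjusted p = 0.82 and 0.082), with all ovary levels of DDX4 between 2.30 and 2.42.

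**Figure D1:**
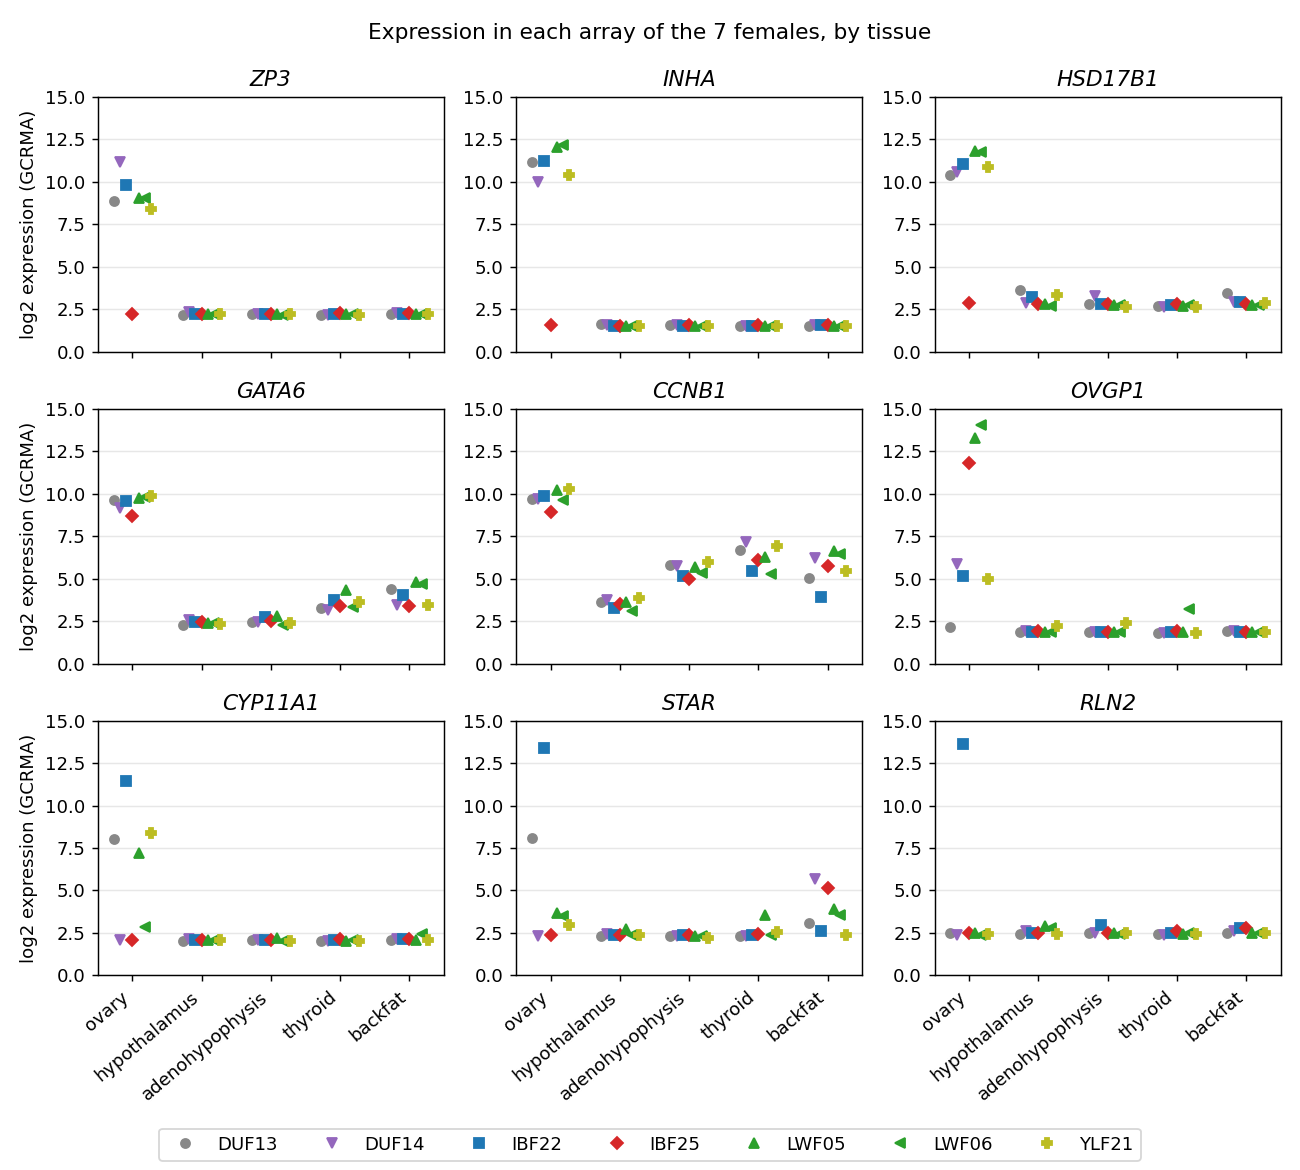
Level of 9 genes in each of the 35 arrays, with tissue on the x axis (ovary first) and log2 GCRMA expression on the y axis, each point 1 array and each symbol 1 female. ZP3, INHA and HSD17B1 are high in 6 ovaries and at the level of the other tissues in IBF25, GATA6 and CCNB1 are high in all 7 ovaries, OVGP1 is highest in IBF25, LWF05 and LWF06, and RLN2 is high only in the ovary of IBF22.

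Granulosa genes were above each tissue for 13 of 25 measured members (52%, against 9.77% of all genes) and below for 1. Without IBF25 these counts were 14 (56%, against 10.5%) and 1. The median difference of the list from the mean of the 4 tissues was 1.99, and 2.26 without IBF25. INHA, the alpha subunit of inhibin, had a lowest, median and highest ovary level of 1.54, 11.17 and 12.15, against 1.49 to 1.59 elsewhere. The 6 ovaries without IBF25 lay at 9.99 or more, and IBF25 was at the floor. The difference was 8.26 ± 0.69 (adjusted p = 4.6e-11), and 9.63 ± 0.17 without IBF25 (adjusted p = 4.8e-23). HSD17B1, which converts estrone to estradiol, was at 2.88, 10.86 and 11.78, against 2.61 to 3.63 elsewhere, and anti-Müllerian hormone (AMH) at 1.69, 7.68 and 8.83, against at most 1.74. In each case IBF25 was the only ovary inside the range of the other tissues. The receptor of follicle-stimulating hormone, FSHR, was low and uneven, from 2.55 to 5.92 with a median of 3.13, against 2.44 to 2.70 elsewhere. YLF21 and DUF13 were highest, and IBF25 and LWF06 lay inside the range of the other tissues. It was nonetheless above each tissue (1.16 ± 0.23, adjusted p = 1.2e-04). VCAN, a matrix proteoglycan (3.28 ± 0.30, adjusted p = 2.3e-10), and FDX1, which passes electrons to the side-chain cleavage enzyme (1.99 ± 0.24, adjusted p = 7.1e-08), were also above each. HSD17B12, an enzyme of fatty acid elongation, was the member below each tissue, at 9.05 to 9.62 in the 7 ovaries, against 9.41 to 11.97 with the thyroid gland nearest and overlapping (difference -1.07 ± 0.11, adjusted p = 1.8e-09).

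The call of FST changed with the fit and with IBF25, and that of SERPINE2 with the animals in the fit. FST, follistatin, which binds activin, was at 2.22, 11.07 and 11.50 in the ovaries, against at most 2.55 in the hypothalamus, adenohypophysis and thyroid gland but 7.23 to 8.85 in backfat. It was higher than the first 3 tissues, and its difference from backfat was 1.76 ± 0.79 (adjusted p = 0.061, but 0.045 with weights for the variance of ovary and other tissues and 0.049 without dim probesets), and 3.0 ± 0.23 without IBF25 (adjusted p = 1.3e-10). SERPINE2, a protease inhibitor of the follicle wall, lay between 11.58 and 13.87 in 6 ovaries and at 2.99 in IBF25, against 4.64 to 9.45 elsewhere. It was called above each tissue (largest of the 4 adjusted p = 0.019), a call that was lost when any 1 of the other 6 females was left out (largest adjusted p 0.055 to 0.088) and that held without IBF25 (7.5e-11). The textbook granulosa genes FOXL2, CYP19A1 (aromatase) and ESR2 were at the floor in all ovaries: FOXL2 at 1.81 to 1.88, CYP19A1 at 2.63 to 2.89, and ESR2 at 2.03 to 2.12. Probesets that do not report their gene and genes without transcripts look alike at the floor, and which applied was not tested.

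Of the inhibin, activin and follistatin family, 8 of 30 measured members were above each tissue (26.7%, against 9.77% of all genes) and none below. Without IBF25 there were 9, with FST (30%, against 10.5%). INHA, INHBB and AMH were also counted on the granulosa list, and BMP15 and GDF9 on the oocyte list. Besides INHA, AMH, BMP15 and GDF9 the 8 were INHBB, the beta B subunit, FSTL3, a relative of follistatin, the receptor BMPR1B and BAMBI, a pseudoreceptor that dampens the signal. BMPR1B was even across the 7 ovaries, 8.09 to 8.84 with a median of 8.44, IBF25 included at 8.29, against 2.42 to 7.78 elsewhere. The nearest tissue was the hypothalamus with a mean of 7.50, and without IBF22 or without YLF21 the call was lost. FSTL3 was between 6.69 and 8.06 (difference 1.63 ± 0.16, adjusted p = 1.4e-09), and BAMBI between 6.62 and 8.81 (1.85 ± 0.27, adjusted p = 1.1e-06), whose call above each tissue was lost without DUF13 (largest adjusted p = 0.074) or without DUF14 (0.087). INHBB was near the floor in 4 ovaries and highest in LWF06, at 5.19, with a median of 2.24, against at most 2.13 elsewhere. INHBA, the beta A subunit, was higher than the mean of the 4 tissues (0.80 ± 0.15, adjusted p = 6.7e-05) but not than each.

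Theca and steroid synthesis genes were above each tissue for 8 of 23 measured members, with or without IBF25. These were 34.8%, against 9.77% of all genes, and 10.5% without IBF25. FDX1 was also counted on the granulosa list. The median difference of the list from the mean of the 4 tissues was 1.19. CYP11A1, which cleaves the side chain of cholesterol, was at 2.08, 7.19 and 11.46 (lowest, median and highest ovary), against 2.02 to 2.42 elsewhere. IBF22, YLF21, DUF13 and LWF05 lay at 7.19 or more, LWF06 at 2.85, and DUF14 and IBF25 at the floor with 2.08 and 2.10. The difference was 3.92 ± 0.71 (adjusted p = 3.5e-05), and 4.57 ± 0.71 without IBF25 (adjusted p = 8.7e-06). INSL3, a peptide hormone of theca cells, ranged from 2.03 to 11.64 with a median of 8.95, and the receptor of luteinizing hormone, LHCGR, from 2.34 to 10.74 with a median of 9.81. Backfat reached 7.21 for INSL3 and 6.64 for LHCGR, so that IBF25 overlapped with the other tissues in both genes, and DUF14 (4.48) in LHCGR.

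HSD3B1, which makes progesterone from pregnenolone, was at 2.19, 6.70 and 11.70, against 2.12 to 5.16 elsewhere. Its call above each tissue was lost without DUF13 (largest adjusted p = 0.052), and the probeset may not tell near-identical copies of the gene apart. CYP17A1, the enzyme of androgen synthesis, was at the floor in 4 ovaries and highest in IBF22, at 7.70, with DUF13 at 4.06 and LWF05 at 3.39. Its call (largest of 4 adjusted p = 0.048) was lost when arrays were centred and without DUF13, DUF14, IBF22 or LWF05 (0.052 to 0.15). STAR, which carries cholesterol into mitochondria, was at 13.36 in IBF22 and 8.06 in DUF13 and at 3.68 or less in the other 5 ovaries, against 2.22 to 5.69 in the other tissues, and was not above each tissue (largest adjusted p = 0.25). FDXR, the reductase that feeds the side-chain cleavage enzyme, was more even: 7.19 to 8.81 in 6 ovaries and 4.15 in IBF25, against 3.44 to 5.01 (difference 3.45 ± 0.32, adjusted p = 3.9e-10). AKR1CL1, an aldo-keto reductase, had a median of 10.87 in ovary and a mean of 10.76 in backfat, a difference of -0.79 ± 0.84 (adjusted p = 0.44), while it was higher in ovary than in the other 3 tissues. IBF25 was at 3.27 and the other 6 ovaries between 8.10 and 12.58, so that 1 array lowered the ovary mean. In bulk tissue, fewer cells of a type and less RNA per cell cannot be told apart, here or for any gene below.

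Gonadal transcription factors were above each tissue for 9 of 22 measured members, with or without IBF25. These were 40.9%, against 9.77% of all genes, and 10.5% without IBF25. WT1, GATA4, GATA6 and NR5A2 were also counted on the granulosa list. Of the 9, 4 were also above all 4 other arrays of IBF25 in its own ovary array, against 52.5% of all genes called without IBF25. GATA6 was even across the ovaries, at 8.67, 9.63 and 9.83, against 2.27 to 4.82 elsewhere, with no overlap (6.36 ± 0.15, adjusted p = 3.0e-23). WT1, which is needed for the gonad to form, was at 6.22, 7.33 and 9.42, against 1.96 to 2.09, and IBF25 was its highest ovary. MEIS1, a homeobox factor, was likewise highest in IBF25 (11.87), with the other ovaries between 7.68 and 9.59, against at most 7.47 elsewhere. GATA4, the partner of GATA6 in granulosa cells, was between 8.45 and 9.08 in 6 ovaries and at 2.12 in IBF25, against at most 2.17 elsewhere. TCF21, a factor of stromal and theca precursors in the mouse, was also high in 6 ovaries (7.25 to 8.81) and within the range of the other tissues in IBF25 (3.40). NR5A2, a nuclear receptor of granulosa cells, was at 8.29 or more in 5 ovaries but at 2.60 in DUF14 and 2.48 in IBF25.

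Some factors known from the gonad were shared with 1 other tissue. NR5A1 (steroidogenic factor), which directs steroid synthesis and also gonadotrope cells, was at 2.35, 6.61 and 7.27 in ovary, against 7.55 to 8.50 in the adenohypophysis and at most 3.10 in the other 3 tissues. Ovary was lower than the adenohypophysis (-1.87 ± 0.42, adjusted p = 5.0e-04) and higher than the other 3. The estrogen receptor ESR1 was at 4.16, 5.75 and 8.93 in ovary, with IBF25 highest, and also lower than in the adenohypophysis (-1.15 ± 0.43, adjusted p = 0.029). AMHR2, the receptor of AMH, had a median of 6.26 in ovary and a mean of 7.83 in the thyroid gland, a difference of -1.87 ± 0.45 (adjusted p = 0.001). The level of AMHR2 was 2.52 in IBF25 and between 5.47 and 7.26 in the other ovaries. The progesterone receptor PGR, by contrast, was above each tissue, at 4.39, 5.28 and 6.45, against 1.94 to 3.01, without overlap (3.30 ± 0.14, adjusted p = 1.7e-17). Of 11 measured steroid hormone receptor genes, PGR was above each tissue and the coactivator NCOA2 below each (-0.84 ± 0.08, adjusted p = 1.2e-09), with or without IBF25, and the 9.09% above each was near the 9.77% of all genes. Of 14 measured members of the hedgehog, WNT and Notch list, 2 were above each tissue (14.3%, against 9.77% of all genes), the hedgehog ligand IHH and the hedgehog target GLI1, with differences of 1.06 ± 0.22 and 1.22 ± 0.19 (adjusted p = 1.7e-04 and 2.9e-06). The filter on dim probesets removed both. IHH was highest in YLF21 (5.38) and DUF13 (3.80), the 2 ovaries with the most FSHR.

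**Figure D2:**
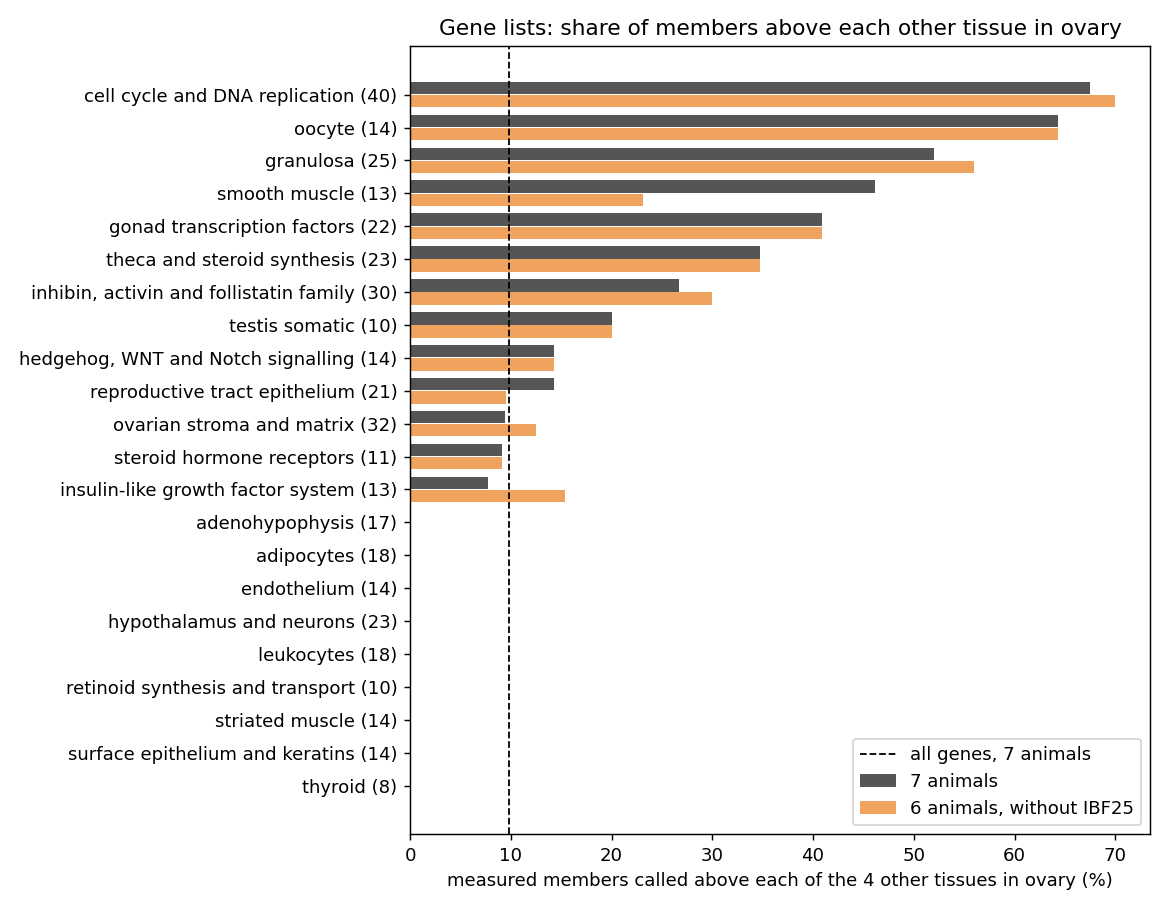
Share of measured members of each gene list (number in parentheses) called above each of the 4 other tissues in ovary, in percent on the x axis, with all 7 animals (dark) and without IBF25 (orange), and the share of all genes as a dashed line at 9.77%. Cell cycle, oocyte and granulosa genes have the longest bars, 67.5%, 64.3% and 52% with 7 animals. Some lists share members, so their bars are not independent.

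Cell cycle and DNA replication genes were above each tissue for 27 of 40 measured members (67.5%, against 9.77% of all genes). Without IBF25 there were 28 (70%, against 10.5%), and none was below. Of the 40, 39 were higher than the mean of the 4 tissues with or without IBF25, against 29.5% of all genes, and the median difference was 2.13. CCNB1, the cyclin of mitotic entry, was at 8.92, 9.70 and 10.29 in the ovaries, against 3.10 to 7.14 elsewhere. The 7 ovaries did not overlap with the other tissues, IBF25 being the lowest (4.52 ± 0.22, adjusted p = 3.7e-16). CDC20, which activates the anaphase-promoting complex, was at 6.37, 7.47 and 8.0, with IBF25 the highest ovary, and TOP2A, a topoisomerase of dividing cells, at 8.77, 9.57 and 10.48, against at most 4.01 and 7.35 elsewhere. Of the 28 genes called without IBF25, 25 were above the other 4 arrays of IBF25 in its own ovary array. The counts were 0 of 9 for the oocyte list, 3 of 14 for the granulosa list and 1 of 8 for the steroid list. The share was 52.5% of all 708 genes called without IBF25, and 18.2% of all genes. AURKA, a mitotic kinase, and PTTG1, the securin that holds sister chromatids together, were much lower in IBF25 than in the other ovaries: AURKA was at 4.39 in IBF25 and 8.32 to 10.73 in the other ovaries, and PTTG1 at 5.51 and 8.82 to 10.29. SKA1, a spindle protein, was at 4.19 in IBF25 and 9.09 to 11.15 in the other ovaries, against at most 2.78 elsewhere.

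Genes outside these lists were also among the 25 with the largest margins over the other tissues. DAPL1 had the largest, at 8.74, 11.04 and 11.73 in the ovaries, against 2.22 to 2.47 elsewhere, without overlap and with IBF25 the lowest (8.44 ± 0.21, adjusted p = 3.0e-23). IGFBP2, which binds insulin-like growth factors, was at 9.50, 10.11 and 11.56, against 3.14 to 6.68, and IBF25 was at 10.67. With 7 animals it was the member above each tissue among 13 measured genes of the insulin-like growth factor system (7.69%, against 9.77% of all genes), and STC1 joined it without IBF25 (largest adjusted p = 0.011). GSTA1, a glutathione transferase, was at 9.27, 13.79 and 14.63, against 2.53 to 10.02, and the lowest ovary, YLF21, overlapped with the adenohypophysis. Its probeset may not tell near-identical copies of the gene apart. KCNN3, a calcium-activated potassium channel, TMPRSS15, known as the enteropeptidase of the gut, PNPLA4, a lipid hydrolase, and FKBP6 complete the 25. Their differences from the mean of the 4 tissues were 5.60 ± 0.53, 5.44 ± 0.51, 6.0 ± 0.57 and 5.04 ± 0.44. In IBF25 they were at 2.12, 2.31, 2.03 and 3.20, against at most 2.34, 2.50, 4.46 and 3.48 in the other tissues. The other ovaries were at 6.63, 6.73, 8.08 and 7.33 or more.

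Of 32 measured stroma and matrix genes, 24 were higher in ovary than in the mean of the 4 tissues with or without IBF25, against 29.5% of all genes. Backfat was higher than any ovary in the mean level of this list (10.08, against 8.41 to 9.18). The hypothalamus (6.07), adenohypophysis (6.74) and thyroid gland (7.91) were lower. FBLN1, VCAN and TCF21 were above each tissue, 9.38% of the list against 9.77% of all genes, and TIMP1 joined them without IBF25. Smooth muscle genes were above each tissue for 6 of 13 members with 7 animals (46.2%, against 9.77% of all genes). Without IBF25 there were only 3 (23.1%, against 10.5%). TPM2, a tropomyosin, was at 10.10, 10.56 and 12.29 with IBF25 highest, against 5.93 to 10.47 elsewhere. Backfat overlapped with 3 ovaries, and the call held without IBF25 (largest adjusted p = 0.0034). TAGLN, MYL9 and SMTN, also of the contractile apparatus, lost theirs without IBF25 (largest adjusted p = 0.054, 0.088 and 0.13) and when arrays were centred on their median, MYL9 and SMTN lost theirs also without IBF22 or LWF05, and SMTN without DUF13 or DUF14. ACTA2, smooth muscle actin, was at 12.66 to 13.27 in the ovaries and lost its call without DUF13 (largest adjusted p = 0.07). No member of the endothelium (14 measured) or leukocyte (18) lists was above each tissue, against 9.77% of all genes. Of the endothelium list 9 were lower than the mean of the other tissues (8 without IBF25), and of the leukocyte list 8 (8 without IBF25), against 28.8% of all genes. The endothelium list averaged 5.30 to 6.70 in the ovaries. It was higher in the thyroid gland (7.32) and backfat (7.82), but at 5.61 in the hypothalamus and 5.57 in the adenohypophysis.

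Genes below each of the 4 tissues in ovary were led by PKIB, an inhibitor of protein kinase A. It was at 3.04, 3.46 and 5.26 in the ovaries, against 5.62 to 10.50 in the other tissues, without overlap, IBF25 being the highest ovary (-4.72 ± 0.22, adjusted p = 1.1e-16). NRSN1, a vesicle protein of neurons, was at 2.55, 2.73 and 3.07, against 3.34 to 12.48 (-6.36 ± 0.27, adjusted p = 1.3e-17). Again no ovary overlapped with another tissue. Pyruvate carboxylase, PC, was at 3.95, 5.61 and 6.22, against 6.73 to 12.78, with backfat far above the rest (mean 12.42). CHCHD10, a protein of mitochondrial cristae, was at 6.75, 7.16 and 8.31, against 8.91 to 11.26. Both were below all other arrays in all 7 ovaries (-3.73 ± 0.20 and -2.91 ± 0.15, adjusted p = 4.2e-15 and 1.8e-15). FBP1, an enzyme of gluconeogenesis, was at 3.02 to 4.20 in 6 ovaries and at 6.77 in IBF25, against 5.07 to 9.55, so that only IBF25 overlapped. SYBU, which links vesicles to microtubule motors, ranged from 2.36 to 8.21 with IBF25, LWF06 and LWF05 highest, and its call was lost without DUF13, DUF14, IBF22 or YLF21 (largest adjusted p 0.097 to 0.18), or with thyroid arrays assigned by their sex and breed fields (0.057). DMTN, an actin-bundling protein, FN3K, which removes sugar from glycated proteins, and CPEB4, which binds messenger RNA tails, were also among the 15 with the widest margins (-2.73 ± 0.23, -2.01 ± 0.14 and -2.24 ± 0.13), as were RGCC, TST, LOC100518620, F2RL2, PPA1 and FBXO3. Of 18 measured adipocyte genes 2 were below each tissue with or without IBF25, against 3.92% of all genes, and 4.2% without IBF25. They were FABP4, the fatty acid carrier of fat cells, and PNPLA2, the lipase that starts triglyceride breakdown. The call of PNPLA2 was lost with thyroid arrays assigned by their fields (largest adjusted p in limma 0.096). It was also lost without IBF25, LWF05 and LWF06 together (0.051). FABP4 was at 2.52 to 4.23 in ovary, against 14.80 to 15.12 in backfat and 2.58 to 5.29 in the hypothalamus, the nearest tissue (differences -11.49 and -1.11, adjusted p = 7.3e-22 and 0.0047).

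How far each ovary followed calls made in the other 6 females was measured by leaving it out of the fit. Of the genes called above each tissue in the other 6, between 83.2% and 89.8% were higher in the left-out ovary than in all 4 other arrays of the same female, for all animals but IBF25, against 16.7% to 25.3% of all genes. For IBF25 the share was 52.5% (372 of 708 genes). In IBF25 17.2% exceeded the highest of its own arrays by at least 1 log2 unit, against 36.3% to 57.7% in the other 6. The fits for the other 6 females held IBF25 and its own fit did not, so the called genes differ in how they were chosen. Of genes called below each tissue, 65.5% were lowest in the ovary array of IBF25, against 82.6% to 98.1% in the other 6, and 14.4% to 24% of all genes. Across genes, each ovary correlated with the mean of the other ovaries at r between 0.971 and 0.986, except IBF25 at 0.907. Genes share arrays and are no independent replicates, so these r are descriptions.

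**Figure D3:**
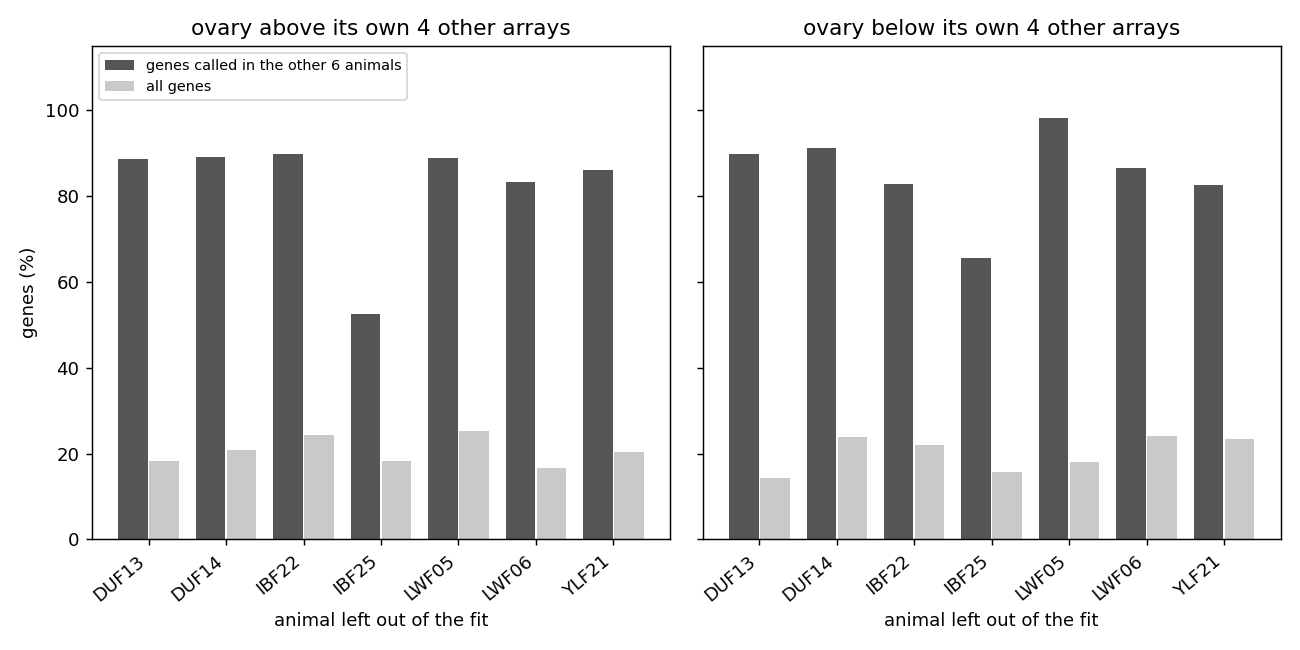
For each female left out of the fit (x axis), the percent of genes called above (left panel) or below (right panel) each other tissue in the other 6 females that are also highest or lowest in her own ovary array (dark bars), beside the percent of all genes (grey bars). The dark bar of IBF25 is the lowest in both panels, 52.5% and 65.5%.

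The gene lists showed in what IBF25 differed. Mean levels in ovary minus the mean of the 4 other arrays of the same animal were -0.04 for oocyte genes in IBF25 and 3.69 to 5.05 in the other 6, 0.30 for granulosa genes and 2.70 to 3.30, and -0.32 for theca and steroid synthesis genes and 0.71 to 3.51. Cell cycle genes differed less, at 1.72 in IBF25 and 2.30 to 2.87 in the other 6. Smooth muscle genes were at 2.79 in IBF25 and 1.01 to 1.71 in the others, and the lists of surface epithelium and of reproductive tract epithelium at 3.82 and 3.68. With a gap of at least 2 log2 units, IBF25 was above all other ovaries for 90 genes and below all for 147, while the other ovaries had at most 24 and 4 such genes. Among those highest in IBF25 were GNMT, a methyltransferase, at 9.62, against at most 2.57 in the other ovaries, and CES1, a carboxylesterase, at 10.50 and at most 4.25. CES1 was also high in backfat (8.56 to 10.75), and GNMT was at 2.35 to 6.83 in the thyroid gland. MUC1, a mucin of epithelial surfaces, was at 6.88, against at most 3.25 in the other ovaries and 6.65 to 8.21 in the thyroid gland. SCRG1, MPZL2, GPX6, DEFB1, STEAP4, TRIM29 and C5 complete the 10 genes with the widest gap above the other ovaries. In the other direction they were SERPINE2, INHA, HSD17B1, DPPA5, FST, CAPNS1, SPOCK3, RARRES1, GPX3 and ITIH3. CAPNS1, the small subunit of calpain, was at 2.68 in IBF25 and 10.66 to 13.73 in the other ovaries, and GPX3, the secreted glutathione peroxidase, at 2.82 and 9.24 to 12.55.

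**Figure D4:**
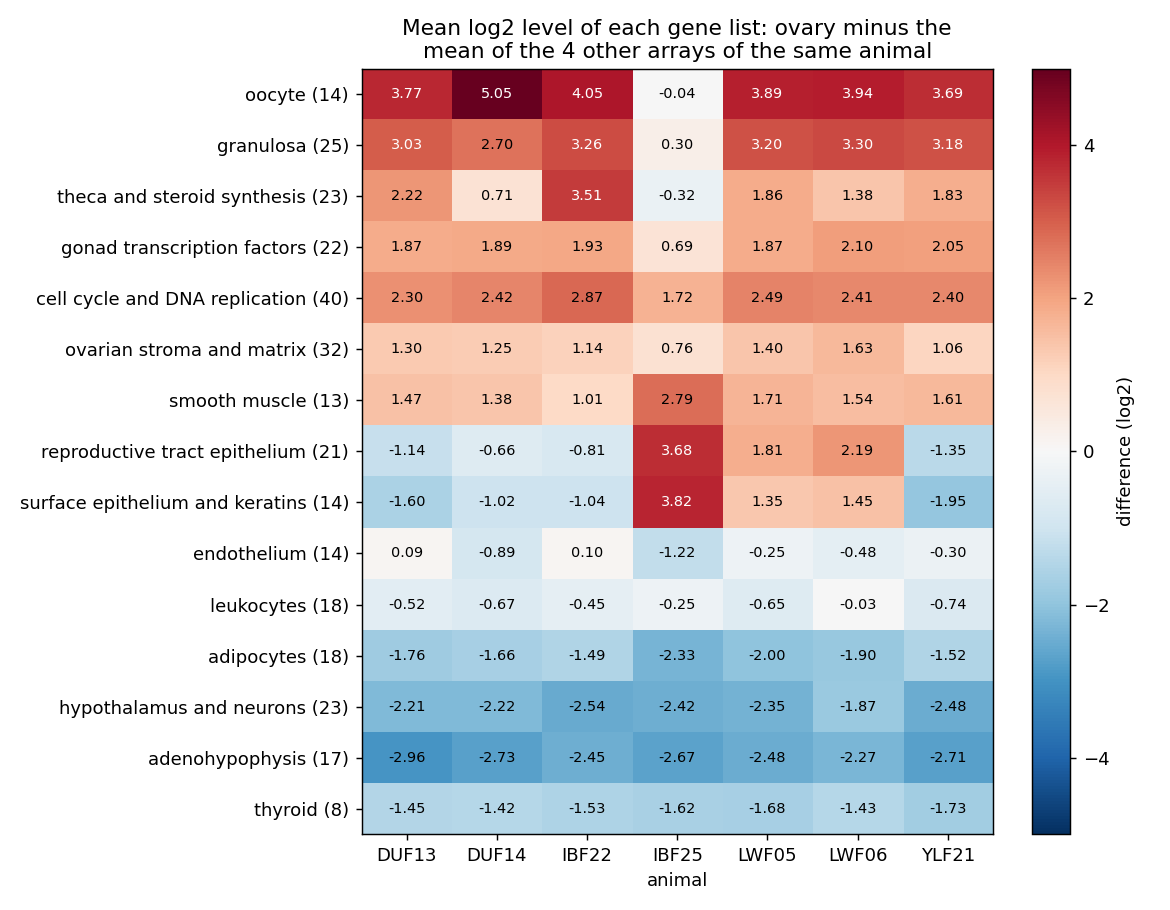
Mean log2 level of each gene list (rows, number of measured genes in parentheses) in the ovary minus the mean of the 4 other arrays of the same animal (columns), printed in each cell and shown by colour (red higher in ovary, blue lower). IBF25 is near 0 for oocyte and granulosa genes (-0.04 and 0.30) and highest for both epithelial lists (3.68 and 3.82). These 2 lists share genes and are also above 0 in LWF05 and LWF06.

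One set of genes was high in IBF25 and in both Large White ovaries. In 76 genes these 3 ovary arrays were each at least 2 log2 units above the other 4, and 1 gene was lower in all 3. The 3 arrays were chosen on these values, so no test is given. OVGP1, the glycoprotein secreted by the oviduct, was at 11.81 in IBF25, 13.24 in LWF05 and 14.02 in LWF06, and between 2.12 and 5.85 in the other 4, against at most 3.19 in the other tissues. TEKT1, a protein of cilia, was at 8.02, 5.66 and 8.0, and at most 2.76 in the other ovaries. SLPI, a protease inhibitor of mucosal secretions, was between 13.51 and 13.90 in these 3, and at most 6.11 in the other ovaries. Backfat had a mean SLPI level of 12.25 and the thyroid gland of 8.67, so SLPI was also high outside the ovary. DMBT1, a mucosal glycoprotein, was at 8.69, 8.05 and 9.07 in the 3 and at the floor elsewhere. Of the 21 measured genes of the reproductive tract epithelium list 10 belonged to the 76, and 7 of the 14 of the surface epithelium list, against 76 of all 6765 genes. CLDN3, CLDN4, CLDN7 and ELF3 are in both of these counts, so the lists are not separate results. The oocyte, granulosa and steroid lists held none, and in both Large White ovaries the oocyte list, with differences of 3.89 and 3.94, lay within the range of the ovaries other than IBF25. These genes bear on calls: 19 of the 76 were above each tissue with 7 animals, 11 without IBF25, and only OVGP1 without all 3. Of all genes, 9.77% were above each tissue with 7 animals, and 10.5% without IBF25. TEKT1 lost its call without IBF25, without LWF05 or without LWF06 (largest adjusted p = 0.16, 0.12 and 0.11). INHBB, DMBT1, MEIS1, HSD17B12, PNPLA2 and RGCC also lost theirs without all 3. Without all 3 animals 687 genes were above each tissue, 568 of them shared with the 661, and 240 below. Levels of both epithelial lists were not particular to these 3 ovaries. The surface epithelium list averaged 8.80 in the thyroid gland, above LWF05 (6.69) and LWF06 (6.99) and below IBF25 (9.15). The reproductive tract epithelium list averaged 7.15 in the thyroid gland, above LWF05 and below LWF06 (7.55) and IBF25 (9.04). The part of tract epithelium in these ovary samples was not tested.

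The ovary of IBF22 stood out in relaxin and in genes of steroid synthesis, an array again singled out on its values. RLN2, relaxin, was at 13.61 in IBF22 and at most 2.53 in the other ovaries, against at most 2.96 in the other tissues. AREG, an epidermal growth factor ligand induced by luteinizing hormone in granulosa cells, was at 7.01, against at most 2.42 in the other ovaries. No other sample came near either value. SCARB1, the receptor that takes up cholesterol from high-density lipoprotein, was at 11.50, with the other ovaries at 7.02 to 8.98, and STAR, CYP11A1, HSD3B1 and CYP17A1 were all highest in IBF22. Its oocyte and granulosa lists were at 4.05 and 3.26, inside the range of the other 5. DUF14 had the lowest steroid list of the ovaries other than IBF25 (0.71) and had the highest oocyte list (5.05), with STAR at 2.32, CYP11A1 at 2.08 and BMP15 at 9.60. Each of these is 1 array of 1 animal, and the pattern has no replicate check.

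**Figure D5:**
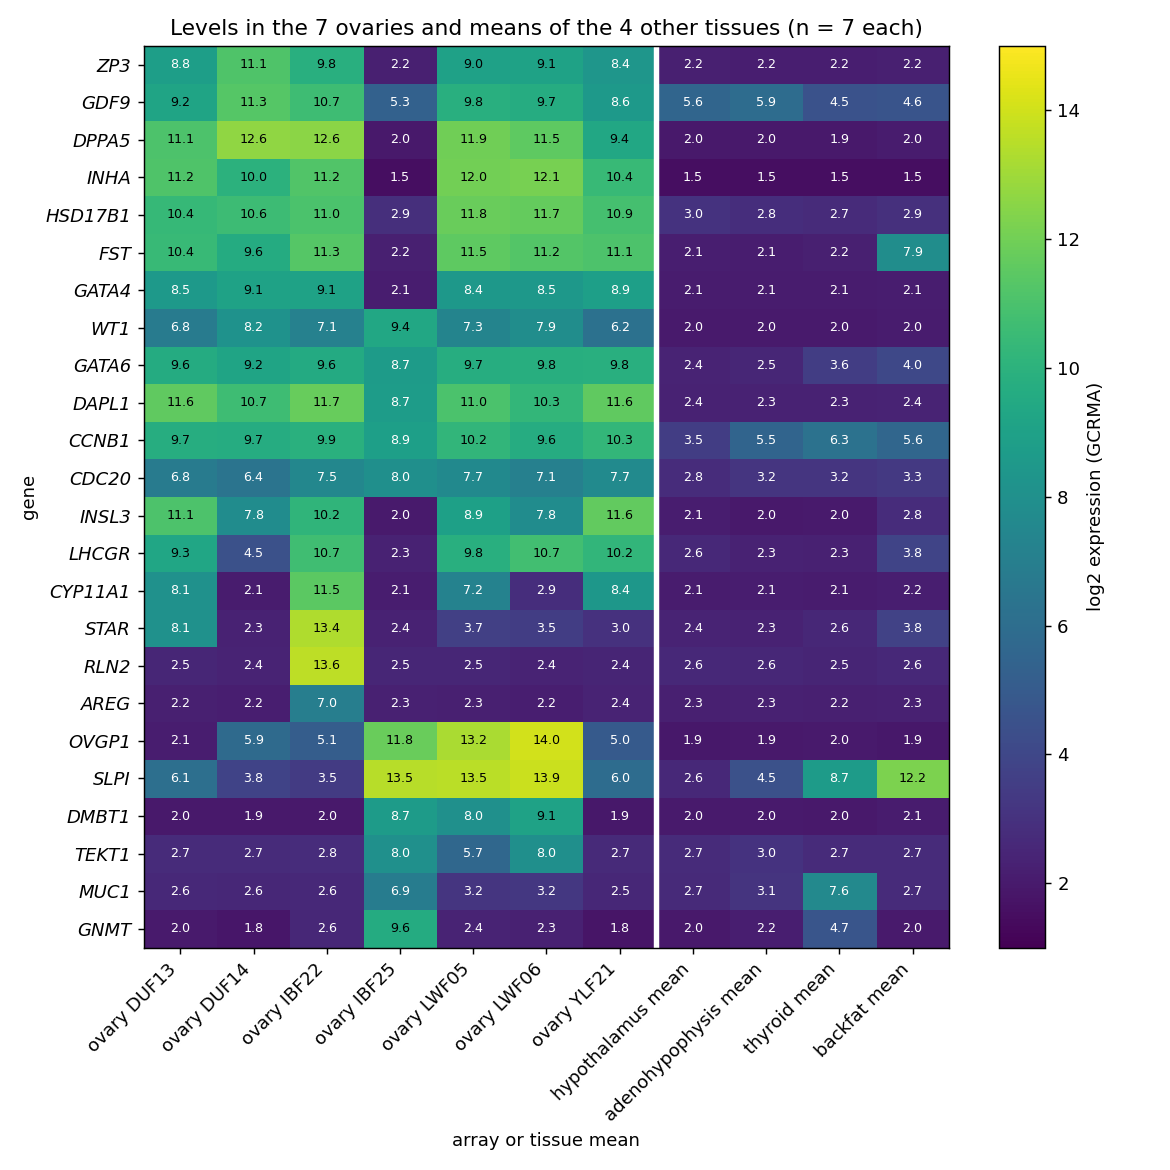
Level of 24 genes (rows) in the 7 ovary arrays (left columns) and mean level in the 4 other tissues (right columns, n = 7 each), printed in each cell and shown by colour, in log2 GCRMA units. IBF25 is at the floor for ZP3, INHA and GATA4 but not for WT1, GATA6 and DAPL1, IBF22 alone has RLN2 and AREG, and OVGP1, SLPI, DMBT1 and TEKT1 are high in IBF25, LWF05 and LWF06.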

How the data were processed

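RNA of 80 tissue samples was hybridised to the Affymetrix Porcine GeneChip, and the authors deposited log2 values of each probeset after GCRMA background correction and normalisation of all arrays together. All 35 arrays of the 7 females were used as deposited. No scanner intensities or detection calls were used here, so depth is known only as the number of arrays. Of 24123 probesets, 124 controls were left out. Gene symbols came from the platform annotation, which gave 10069 probesets 1 symbol, 198 several and 13732 none, and the probeset of highest mean stood for each of 6765 genes.

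Groups followed sample titles. With limma 3.58.1 in R 4.3.3, a model of tissue and breed was fitted to the 23999 probesets, with 27 residual degrees of freedom. Contrasts were ovary minus the mean of the 4 tissues and ovary minus each. Tests were two-sided, p-values were adjusted by Benjamini-Hochberg over all probesets of a contrast, and 0.05 was the threshold. The limma steps were tested on simulated data. The labels do not say more of replicates than 1 array per animal and tissue. The model held no animal term, so its p-values measure the spread of the 35 arrays left after tissue and breed. That spread was shared by ovary and other tissues. For genes at the floor in the other tissues it is smaller than the spread among ovaries. Arrays of 1 animal were treated as independent, although animal numbers pair them. Per-animal differences gave 1596 genes higher and 1683 lower than the mean of the 4 tissues, against 1999 and 1951.

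Genes named were the 5 markers, the 25 genes called above and the 15 called below each tissue with the widest margin from the nearest tissue mean, up to 6 called members and the defining genes of each list, and the 10 genes in each direction with the widest gap between IBF25 and the other ovaries. Genes of the 3-array and IBF22 patterns were chosen after their values were seen. The comparison, its markers and the gene lists were chosen with earlier results of these data known.

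All tissues came from the same animals, so animal numbers pair the arrays. Over 200 probesets chosen in the 4 other tissues, each of the 7 ovaries correlated best with its own animal (r between 0.52 and 0.82, against at most 0.30 for another). Alternatives were the animal as replicate block, per-animal differences, weights for the variance of ovary and other tissues, median centring, quantile normalisation, a filter of dim probesets (level 5 in at least 5 arrays, leaving 14561), thyroid arrays assigned by their sex and breed fields, the mean of a gene's probesets, and leaving out all arrays of each animal. A minimum difference of 1 log2 unit, leaving out IBF25, LWF05 and LWF06 together, and combinations with leaving out IBF25 were chosen after seeing the data.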

Additional observations from a re-analysis of the deposited data

Results flagged for a closer look

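Single ovaries that lay far from the other 6 were looked for among 93 named genes with Dixon's ratio (the gap to the nearest ovary over the whole range, past its critical value for 7 samples), which chance passes in about 1 of 20 groups. It was exceeded mostly by the array labelled ovary of IBF25.

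IBF25 was the lowest ovary in 24 genes. Among oocyte genes these were ZP3 (2.22), ZP4 (2.71), BMP15 (1.97), DPPA5 (1.97), PADI6 (2.20), WEE2 (2.08), KPNA7 (3.24) and FKBP6 (3.20). Among granulosa, theca and gonad genes they were INHA (1.54), AMH (1.69), AMHR2 (2.52), FST (2.22), HSD17B1 (2.88), SERPINE2 (2.99), GATA4 (2.12), NR5A1 (2.35), TCF21 (3.40), INSL3 (2.03) and FDXR (4.15). Among genes of cell division they were AURKA (4.39), SKA1 (4.19) and PTTG1 (5.51), and among other genes FKBP6 (3.20), CAPNS1 (2.68) and GPX3 (2.82).

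IBF25 was the highest ovary in 7 genes: MUC1 (6.88), PKIB (5.26), FBP1 (6.77), GNMT (9.62), CES1 (10.50), SMTN (10.53) and TPM2 (12.29). IBF22 was the highest in 4, CYP17A1 (7.70), RLN2 (13.61), AREG (7.01) and TIMP1 (13.48), and LWF06 in INHBB (5.19). Several of these genes were named because of such a gap, so the number of genes past the ratio is a description.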

How the results depend on the processing

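Of 300 counts under alternatives, 288 lay within 1.5 times the reported count. The others were all counts of features lower in ovary. With arrays centred on their median, 3125 genes were lower than the mean of the 4 tissues (3164 without IBF25), 13171 probesets (13334), 892 genes below each tissue (783), 60 below each by 1 log2 unit (74) and 3162 lower than backfat (3182), and without IBF25 also 2547 lower than the adenohypophysis. Quantile normalisation without IBF25 gave 61 below each by 1 log2 unit. Centring moved the split of calls towards lower genes, with 485 above each tissue (524 without IBF25) and 251 above each by 1 log2 unit. Leaving out 1 animal at a time gave 1853 to 2007 genes higher and 1735 to 2016 lower than the mean of the tissues (4833 to 5270 and 5462 to 6873 probesets, against 5293 and 6620 with all), 556 to 708 above and 214 to 284 below each tissue, 1494 to 2472 higher than a single tissue and 1557 to 2108 lower, and 280 to 334 above and 34 to 51 below each by 1 log2 unit. With the animal as replicate block, 2078 genes were higher and 2004 lower than the mean, and 695 were above and 287 below each tissue (721 and 298 without IBF25). Per-animal paired differences gave 1596 and 1683. The block changed no call of a named gene. Of 85 named genes called above or below each tissue, 11 were lost with the block, centring, quantile normalisation or 1 animal left out. Another 6 (RGCC, MEIS1, PNPLA2, INHBB, DMBT1 and HSD17B12) were lost without IBF25, LWF05 and LWF06 together, and 68 were called against each tissue in every fit of single probesets that held them. No named gene turned direction under the alternatives planned for named genes. FST was called without IBF25, with weights and without dim probesets, and PNPLA2 was not called with thyroid arrays assigned by their fields (largest adjusted p in limma 0.096). Values near the GCRMA floor limit all ratios, and 7 animals, of which 1 ovary array stands apart, limit the precision.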
